A study of Mus musculus with 3 samples.

Results

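The enzymes and cofactors that write, copy, read and remove cytosine methylation were examined in mouse embryonic fibroblasts (MEF, primary cells grown from minced embryos) cultured with n-butylidenephthalide (BP), a compound from Angelica sinensis. All 21 probes named Dnmt1, Dnmt3a, Dnmt3b, Dnmt3l, Tet1, Tet2, Tet3, Uhrf1, Mbd3 or Tdg were taken, which gave 10 genes of the 35451 gene names on the array. The probes were taken by gene name, and the list of genes was chosen with earlier results of these data known. The 3 groups were C57BL/6 MEF kept without BP (control), at 10 µg/ml BP (called BP10) or at 40 µg/ml BP (called BP40). Their Cy3-labeled RNA was read on Agilent 1-colour oligo arrays of the mouse transcriptome, with 1 array for each group. The labels give the treatment of the control as none, while the paper's text describes a DMSO control. All 3 groups shared the same medium, and the labels give neither the number of cultures or embryos behind an array nor how long BP was present. There were no replicates, so there are no p-values, and a ratio compares 2 arrays.

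DNA methylation at CpG sites is copied after replication by Dnmt1, which Uhrf1 brings to hemimethylated DNA. Dnmt3a and Dnmt3b place new methyl groups, and Dnmt3l, which has no catalytic activity, assists them, chiefly in germ cells and early embryos. The Tet enzymes oxidize 5-methylcytosine, Tdg excises the further oxidized bases for repair, and Mbd3 is a subunit of the NuRD chromatin remodelling complex. Erasure of methylation at pluripotency genes is part of the reprogramming of fibroblasts into induced pluripotent stem cells, the setting in which BP was studied. The arrays measure the transcripts of these genes and not methylation itself.

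Most of the 10 genes differed little between the arrays. Tet3 was lower on both BP arrays and Dnmt3b was lower on the BP10 array, while Dnmt1, Uhrf1, Dnmt3a and Mbd3 stayed within 0.22 of the control on the log2 scale in their brightest probes. Several genes had probes that went different ways, most of all Tet3, Tdg and Tet2. The probes of these genes are therefore shown first. Each line gives the first 30 of the 60 bases of a probe, 5′ to 3′ on the strand of the transcript, with no letters marked, and positions are those of the array design on mm9. Both Dnmt3b and Tet3 are represented below by their brightest probe, which is named first.
Tet3 A_55_P2175260, chr6:83319720-83319779, minus strand: gccctccctcaaggtggagcctcagaacca
Tet3 A_52_P491273, chr6:83352743-83352802, minus strand: accaaggctgagaacccactcacaccaacc
Tet3 A_51_P199339, chr6:83318731-83318790, minus strand: ccctgaaaggtggacctgggttccaagaca
Dnmt3b A_55_P1975903, chr2:153512098-153512157, plus strand: tgtttgcccccttgaaggaccactttgcct
Dnmt3b A_55_P2130535, chr2:153513403-153513462, plus strand: gtgcaaagatgacagatgcccagagtttac
Dnmt3b A_55_P2008874, chr2:153512991-153513050, plus strand: tcaggtccccagaaccccctagttcctcat
Tdg A_55_P2044091, chr10:82110701-82110760, plus strand: acgcaaagaagatggctgttaaggaagaaa
Tdg A_55_P2121364, chr10:82112994-82113053, plus strand: ggcgttctcattaaataatactgagatttt
Tdg A_66_P116265, chr10:82113115-82113174, plus strand: cctccccactggaaacctgaggatggctta
Tet2 A_55_P2081303, chr3:133126751-133126810, minus strand: gcttacttcctgagattttggctttgttta
Tet2 A_55_P2051405, chr3:133126905-133126964, minus strand: acgcacagtgatgtatagttcactttacaa

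A level below is the log2 of the background-corrected signal minus the 75th percentile of the gene spots of that array, so 0 is the 75th percentile, and levels of different probes are not set against each other. A gene was called when its representative probe, the one above background on the most arrays and then the brightest, differed by at least 2-fold (a log2 ratio of 1 or more in size). The share of gene spots well above background was 81.7% on the control array and 68.3% and 69.1% on the BP10 and BP40 arrays, and no spot was saturated. BP10 and BP40 were scanned together and the control in another session, so for ratios to control the effects of scan and BP cannot be told apart. All 10 genes, and 20 of the 21 probes, were well above background on all 3 arrays. As a guide to precision without replicates, repeated spots of 1 probe on an array had a median SD of 0.13, 0.07 and 0.07 (control, BP10 and BP40, log2), and over 4731 genes the log2 ratios of the 2 probes of a gene differed by a median of 0.42 at BP10 and 0.32 at BP40. Neither covers the spread between cultures.

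At BP10, 2 of the 10 genes were called, both lower (Dnmt3b and Tet3), where 12.9% of all gene names were called in either direction and 10.3% were called lower. At BP40, 1 of the 10 was called, again lower (Tet3), where 11.5% of all gene names were called and 9% were lower. Between BP40 and BP10 none of the 10 was called, while 3.65% of all gene names were called and 1.77% of all gene names were called lower. Ratios below 0 were seen in 7 of the 10 genes at BP10, 4 at BP40 and 3 for BP40 against BP10, where 64.2%, 54.7% and 39.4% of the genes above background on all arrays were below 0. The 10 genes had a median log2 ratio of -0.10 at BP10, beside -0.23 for all genes, and of 0.02 at BP40, beside -0.11. For genes above background on all arrays, as all 10 were, the medians were -0.17 at BP10 and -0.06 at BP40. Both comparisons with the control share the control array. With 10 genes, 1 gene more or less changes a share by 10 percentage points, and these shares are not read as a property of the group.

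**Figure D1:**
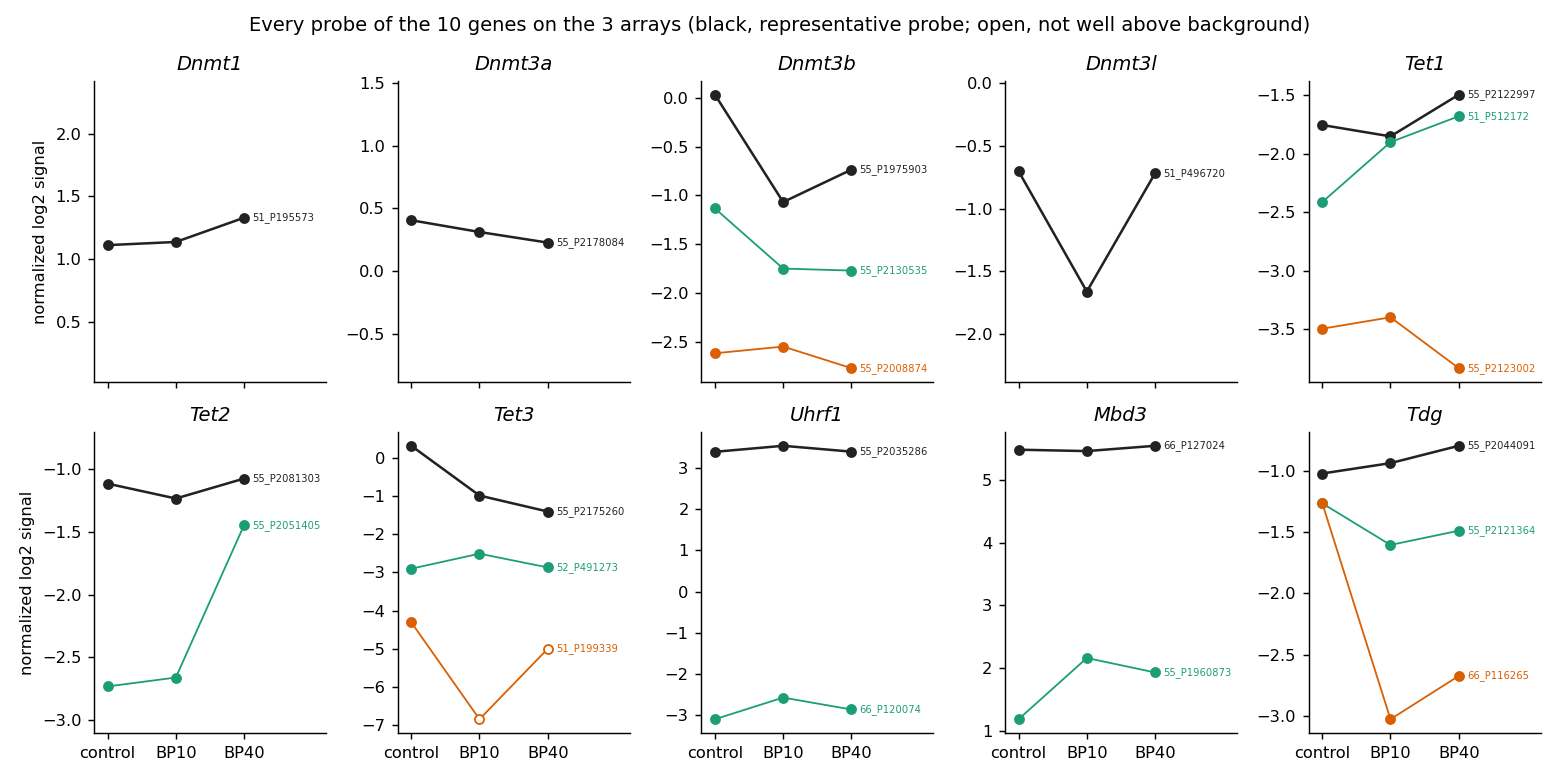
Normalized log2 signal (y axis, 0 is the 75th percentile of the array's gene spots) of each probe of the 10 genes on the control, BP10 and BP40 arrays (x axis), 1 array each and without error bars. Black is the representative probe, colours are other probes, and open points were not well above background; the black Tet3 line runs from 0.32 to -0.99 and -1.40, whereas Dnmt1, Uhrf1 and Mbd3 (black) stay within 0.22 of the control.

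Dnmt1, the maintenance methyltransferase, had 1 probe (A_51_P195573, chr9:20711973-20712341 on the minus strand, spanning 369 bases of the genome and so crossing a splice junction). Its level was 1.11 in control, 1.14 in BP10 and 1.33 in BP40. The 3 arrays lay close together, with log2 ratios of 0.03 at BP10 and 0.22 at BP40. This probe and 1 of Uhrf1 span a junction, which ties their signal to spliced RNA, and their first 30 bases are shown for that reason.
Dnmt1 A_51_P195573: tgtccagtgctcgggagagcgcatcagctg
Uhrf1 A_66_P120074: agctatacggcaacatcaggctcttgaatg

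Uhrf1, the partner that recognizes hemimethylated CpG, had 2 probes. The brighter one (A_55_P2035286, chr17:56462770-56462829, plus strand) had a level of 3.39 in control, 3.54 in BP10 and 3.40 in BP40. Its ratios to control were 0.15 and 0.00, so the transcript was measured at almost the same level with and without BP. The dimmer one (A_66_P120074), which lies across a junction at chr17:56451668-56452321, had -3.10, -2.57 and -2.86. Its ratios of 0.53 and 0.24 were above 0 but under 2-fold, on a probe with a signal of 167 to 236 units. A signal of this strength carries more error: at levels from -4 to -2, repeated spots on the control array had a median SD of 0.29, against 0.09 for levels above 0.

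The genes nearest to these 2 in their pair of ratios, among 144 genes of the lists used here that were above background on all arrays, were Mbd4, Rrm2 and Tdg for Dnmt1 (distances of 0.04, 0.04 and 0.06 log2 units over 3 arrays) and Uhrf2, D2hgdh and Mbd2 for Uhrf1 (0.06, 0.10 and 0.10). Tdg was near Dnmt1 in its representative probe, while another of its probes had ratios of -1.76 and -1.41. Such nearness over 2 ratios that share a control describes representative probes that hardly moved. The replication and mitosis list was in the same range. None of its 24 genes was called in any comparison, where 12.9% of all gene names were called at BP10, 11.5% at BP40 and 3.65% between the doses. All were above background, and their median ratios were -0.08 at BP10 and 0.03 at BP40. Other probes of Ccnb1 and Cdk1 had ratios as far as 1.19 and -1.01 at BP10. Mcm2 and Mcm3, subunits of the replicative helicase, had ratios of -0.16 and -0.03 at BP10 and 0.01 and -0.02 at BP40.

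Dnmt3a, a de novo methyltransferase, had 1 probe (A_55_P2178084, chr12:3914320-3914379, plus strand) with levels of 0.40, 0.31 and 0.23 on the control, BP10 and BP40 arrays. Each array was slightly below the one before, and the ratios of -0.09 and -0.18 were smaller than the median difference between 2 probes of a gene.

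Dnmt3b, the other de novo enzyme, had 3 probes, all in a stretch of chromosome 2 with gaps of 833 and 352 bases between them. The representative probe A_55_P1975903 had a level of 0.03 in control, -1.07 in BP10 and -0.74 in BP40. Dnmt3b was thus 2.14-fold lower on the BP10 array (log2 ratio -1.10, called) and 1.70-fold lower on the BP40 array (-0.77, not called). Only 8.2% of the genes above background on all arrays had a lower ratio at BP10, and 14.8% had one at BP40. The most downstream probe, A_55_P2130535, had -1.13, -1.75 and -1.77, with ratios of -0.62 and -0.64. The dimmest probe, A_55_P2008874, which lies between them, had -2.62, -2.55 and -2.77, with ratios of 0.07 and -0.15. The first of these probes and the most downstream one thus had ratios from -0.62 to -1.10, and the dimmest was near its control level, so the call at BP10 rests on 1 of 3 probes.

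Dnmt3l, the cofactor without catalytic activity, had 1 probe (A_51_P496720, chr10:77526112-77526171, plus strand). Its level was -0.70 in control, -1.66 in BP10 and -0.72 in BP40, from signals of 1073, 443 and 739 units. The BP10 array alone was low under this scaling. Its ratio of -0.96 at BP10 was just outside the 2-fold limit, with the -1.10 of Dnmt3b just inside it. The BP40 array was within 0.02 of the control, and BP40 exceeded BP10 by 0.94, a ratio higher than that of 97.8% of genes. Scaled on spike-in probes, the ratios were -0.82 at BP10 and -0.79 at BP40, and the difference between the doses was 0.03. With 1 probe and 1 array at each dose, the low value at the lower dose alone has no second measurement. BP10 and BP40 were scanned in the same session, and what lies behind the difference between these 2 arrays was not tested.

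Tet1, an oxidase of 5-methylcytosine, had 3 probes and no call. The representative probe A_55_P2122997 (chr10:62274448-62274507, minus strand) had -1.75, -1.85 and -1.50, ratios of -0.10 and 0.26. The next, A_51_P512172, had -2.41, -1.90 and -1.68, ratios of 0.51 and 0.73. The most upstream, A_55_P2123002, was dim at -3.49, -3.40 and -3.83, with ratios of 0.10 and -0.34. Signs differed among the 3 at both doses, and no ratio reached 2-fold.

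Tet2, a second oxidase, had 2 probes separated by 94 bases. A_55_P2081303 had levels of -1.11, -1.23 and -1.07 and ratios of -0.12 and 0.04. A_55_P2051405, just upstream, had -2.73, -2.66 and -1.44. It rose on the BP40 array, 2.44-fold above the control and 2.32-fold above BP10 (log2 ratios 1.29 and 1.22, from signals of 263, 222 and 446 units), while its neighbour did not. Scaled on spike-in probes, both differences were under 2-fold (0.51 and 0.30). It was the only probe of the 21 that was at least 2-fold higher in any comparison with both arrays above background, and it did not represent the gene under the rule because its neighbour was brighter.

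Tet3, the third oxidase and the main one of the zygote, gave the lowest ratios among the 10 genes. The representative probe A_55_P2175260 had a level of 0.32 in control, -0.99 in BP10 and -1.40 in BP40, from signals of 2172, 707 and 459 units. Both BP arrays were far below the control, 2.47-fold at BP10 and 3.30-fold at BP40 (log2 ratios -1.30 and -1.72), and BP40 differed from BP10 by -0.42. Only 4.4% of genes above background on all arrays had a lower ratio at BP10, and 0.85% at BP40. The probe A_52_P491273, which lies 32963 bases upstream, had -2.90, -2.51 and -2.87, with ratios of 0.39 and 0.03, so it did not show the lower level. The third, A_51_P199339, 929 bases downstream of the brightest, was above background on the control array (-4.31) and not well above background on either BP array. Against the background limit it was at least 1.69-fold lower at BP10. At BP40 its own dim signal, which lay above that array's limit, was 1.62-fold lower (log2 ratios of -1.47 to -0.04 over 6 scalings). Both were short of a call, and no fold between the BP arrays can be given. The call of Tet3 thus rests on its brightest probe, with the dim downstream probe lower and the dim upstream probe not.

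Tdg, the glycosylase that removes oxidized cytosines, had 3 probes with 2233 and 61 bases between them. The representative and most upstream probe A_55_P2044091 had -1.02, -0.94 and -0.80, ratios of 0.08 and 0.23. The middle one, A_55_P2121364, had -1.27, -1.61 and -1.49, ratios of -0.34 and -0.22. The most downstream, A_66_P116265, had -1.27 in control, -3.02 in BP10 and -2.67 in BP40. That probe was 3.38-fold lower at BP10 and 2.65-fold lower at BP40 (log2 ratios -1.76 and -1.41), although it lies 61 bases from a probe with ratios of -0.34 and -0.22. Only 1 of the 3 probes passed the 2-fold limit, and because it does not represent the gene, Tdg was not called. Which of the transcripts of Tdg each probe reads was not tested.

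Mbd3, a methyl-CpG binding family member in the NuRD complex, had 2 probes 1177 bases apart. The brighter, A_66_P127024 (chr10:79855402-79855461, minus strand), had 5.48, 5.46 and 5.55, and its ratios of -0.02 and 0.06 were among the smallest of the 21 probes. The other, A_55_P1960873 (chr10:79856639-79856698), had 1.18, 2.16 and 1.93. Its ratios were 0.98 and 0.75, at BP10 just under 2-fold, and the second was -0.03 when the arrays were scaled on spike-in probes.

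**Figure D2:**
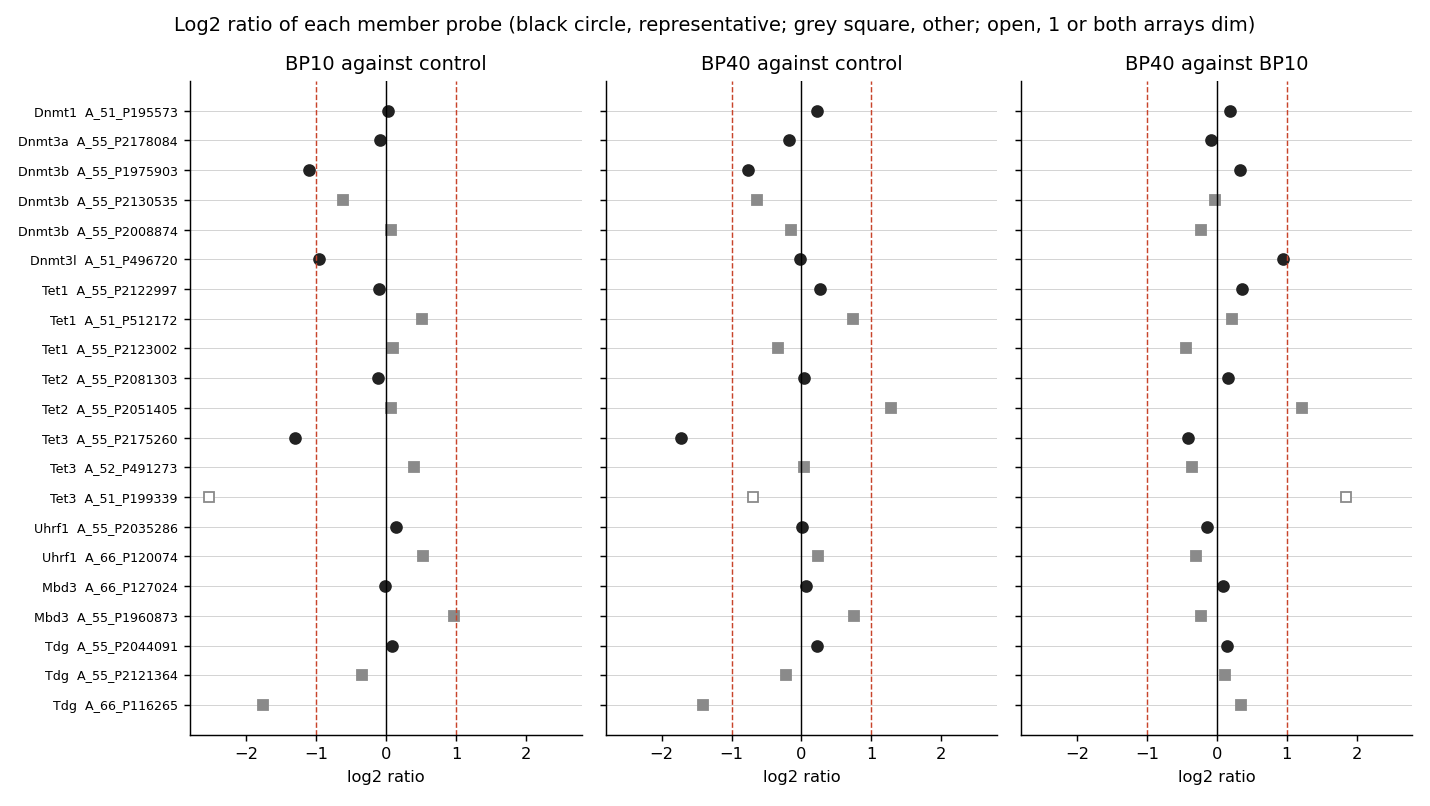
Log2 ratio (x axis) of each of the 21 probes (y axis) in the 3 comparisons of arrays, with 1 array per group and no error bars. Circles are representative probes, squares other probes, open symbols have an array not well above background and are drawn at the measured ratio, and dashed lines mark 2-fold; for Tet3, Tdg and Tet2 some probes lie past a dashed line while others of the same gene lie near 0.

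Disagreement of this kind was not particular to these genes. Of 1376 genes with 3 probes above background on all arrays, 31.1% had probes whose ratios spanned at least 1 log2 unit at BP10 and 29.1% at BP40. Among the 10 genes, Dnmt3b, Tdg and Tet1 had 3 such probes, and 2 of the 3 reached this span in each comparison with the control (Dnmt3b and Tdg at BP10, Tet1 and Tdg at BP40) and 0 of the 3 between BP40 and BP10. Of 4731 genes with 2 such probes, 14.5% and 12.8% reached it. Tet2, Tet3, Uhrf1 and Mbd3 had 2, and 1 of the 4 reached it at BP10 (Tet3) and 2 at BP40 (Tet2 and Tet3). Over all 21 probes, 3 were called lower and none higher at BP10 (Dnmt3b, Tet3 and Tdg), and 2 were called lower and 1 higher at BP40, where 12.4% and 11% of all probes were called. Between BP40 and BP10, 1 of the 21 was called (Tet2, higher), and 3.73% of all probes were.

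Low signals were lower on the BP arrays across the genome. Below the 75th percentile, the running median of the log2 ratio fell with decreasing brightness in both comparisons with the control. With the running median at each brightness subtracted, Tet3 had -1.20 and -1.66, Dnmt3b -1.01 and -0.72, and Dnmt3l -0.81 and 0.07. The same 2 genes at BP10 and 1 gene at BP40 stayed past 2-fold.

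**Figure D3:**
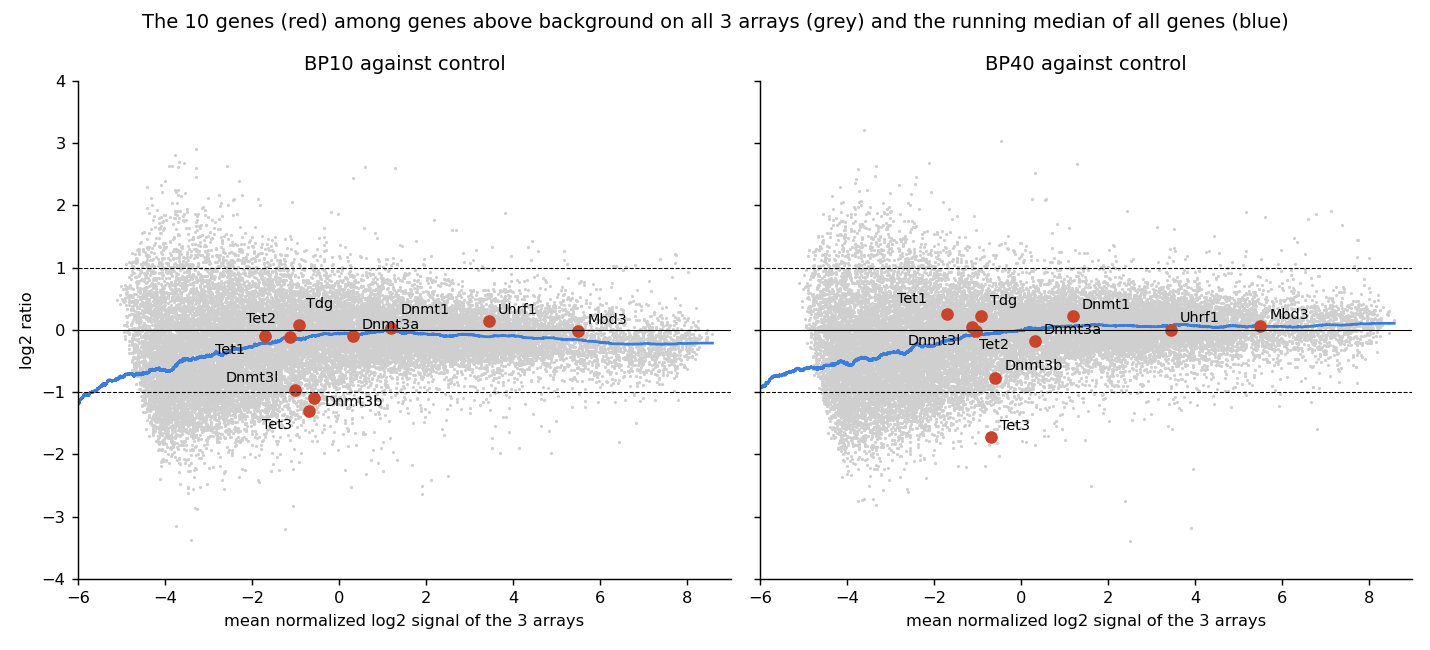
Log2 ratio to control (y axis) against mean normalized log2 signal of the 3 arrays (x axis) for genes above background on all arrays (grey), the running median of all genes in windows of 1001 (blue) and the 10 genes (red). Tet3 lies at -1.30 and -1.72, and Dnmt3b at -1.10 and -0.77, well below the blue line, while Dnmt1, Uhrf1 and Mbd3 lie on or near it.

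The genes that work with these enzymes were taken as lists and counted by their representative probes. Of all gene names, 12.9% were called at BP10, 11.5% at BP40 and 3.65% between the doses. None of the 10 methyl-CpG binding and hemimethyl binding proteins was called in any comparison. Their medians were -0.11 and 0.02, and Mbd1, which binds methylated CpG, had ratios of -0.31 at BP10 and 0.20 at BP40 (0.49 and 0.00 in its other probe). With no background filter, other probes of Zbtb4 had ratios as low as -1.42 at BP10 and -3.30 at BP40. The other probe of Zbtb38 had 1.03 at BP10. None of the 12 NuRD genes was called either, and the remodelling ATPases Chd3 and Chd4 had -0.25 and -0.41 at BP10 and -0.89 and -0.21 at BP40. Of the 8 partners of maintenance methylation on the array, 1 was called. Zfp57, a zinc finger protein that keeps methylation at imprinted loci, was lower at BP10, with levels of 0.61, -0.71 and -0.35 on the control, BP10 and BP40 arrays (ratios -1.32, called, and -0.95, not called). Its other probe had ratios of 0.41 and -0.39, so the call at BP10 rests on 1 of 2 probes that differed in sign. Pcna, the sliding clamp, and Usp7, a deubiquitinase of Uhrf1 and Dnmt1, had -0.21 and -0.27 at BP10 and 0.27 and -0.04 at BP40, and the other Usp7 probe had 0.12 and -0.43.

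On the side of removal, none of the 12 base excision repair genes and none of the 11 TET cofactors and partners was called in any comparison. For these lists too the shares of all gene names called were 12.9% at BP10, 11.5% at BP40 and 3.65% between the doses. The endonuclease Apex1 and the scaffold Xrcc1 had ratios of 0.15 and 0.19 at BP10 and -0.26 and 0.27 at BP40. Idh1 and Idh2, which make the 2-oxoglutarate that the Tet enzymes consume, had -0.68 and -0.42 at BP10 and -0.91 and -0.10 at BP40. In the list of TET cofactors and partners, the other probe of Slc23a2 had 1.75 at BP10 and -1.84 between the doses. Another probe of Cxxc4 had -1.73 at BP40, both read with no background filter. Of 14 genes of S-adenosylmethionine supply, the methyl donor of the Dnmt enzymes, 2 were called at BP10 and none at BP40, beside those shares of 12.9% and 11.5%. Gnmt, which uses up the donor, had -0.84, -1.90 and -1.57. Bhmt, which remakes methionine, had -2.44, -3.86 and -2.85, so it was lower on BP10 and higher by 1.01 on BP40 than on BP10, while the other 3 probes of the gene gave -1.12 to -0.46 at BP10 and -0.72 to 0.42 between the doses. Mat2a and Mat2b, the subunits of the enzyme that makes the donor, had 0.29 and -0.26 at BP10 and 0.10 and -0.16 at BP40, and the other Mat2a probe had 1.01 and 0.38.

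**Figure D4:**
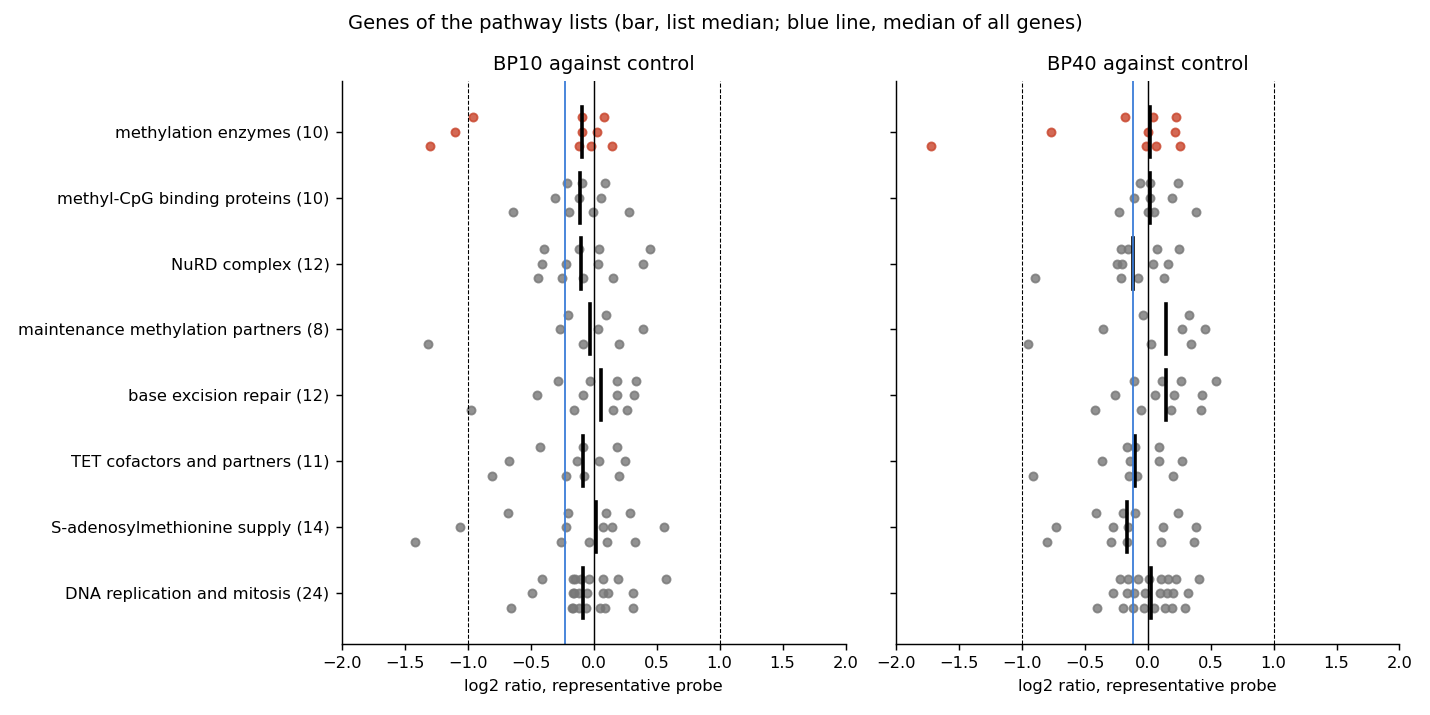
Log2 ratio to control (x axis) of the representative probe of each gene in 8 lists (y axis, number of genes in parentheses), 1 point per gene, with the list median as a black bar, the median of all genes in blue and 2-fold as dashed lines. Tet3 and Dnmt3b are the 2 lowest red points in both panels; the replication and mitosis list has no gene past a dashed line.

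The labelled cell type was checked on its markers. All 12 fibroblast markers were above background on all arrays, with Col1a1 at a level of 7.83 on the control array. Their summed level went from 10.61 on the control array to 10.14 on BP10 and 10.25 on BP40 (log2). All 12 had a ratio below 0 at BP10 and 10 of 12 at BP40, beside 64.2% and 54.7% of the genes above background on all arrays. At BP10 2 and at BP40 3 were called lower, among them Lum (-3.19 and -2.21), where 10.3% and 9% of all gene names were called lower. The 8 macrophage markers were all above background, with summed levels of 5.13, 4.81 and 4.97 and no call. Of the 6 epithelial markers, 4 were above background on all arrays (Krt18 at 0.84 on the control array), and Epcam and Cdh1 were below background on every array. In bulk RNA, fewer cells of a type and less RNA per cell cannot be told apart, and the part of these shifts in the lower Tet3 and Dnmt3b signals was not tested.

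The 10 genes lie on several chromosomes, but 4 of them and 9 of the 21 probes are on chromosome 10 (Tet1, Dnmt3l, Mbd3 and Tdg). Their promoters, taken as 300-base windows around 17 RefSeq starts (GRCm38.p6), held a median of 22 CpG, beside 7 over 32851 windows. The 3 windows of Dnmt3l held 3 to 6 CpG, and the single Tet2 window had 57. Methylation of these windows was not measured.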

How the data were processed

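Total RNA of MEF in 3 groups was labeled with Cy3 and hybridized by the authors to Agilent Mouse G3 whole genome oligo arrays, 1 array each. The authors deposited scanner output of Feature Extraction 10.5.1.1, in which the intensity of each spot is background-subtracted and not scaled between arrays. The software's multiplicative detrending had been applied to the BP10 and BP40 arrays and not to the control array. The deposited intensity table of the series is identical to these values. The paper's text names GeneSpring GX and no normalization or threshold.

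Here, log2 of the processed intensity minus the 75th percentile of each array was taken over gene spots not flagged as outliers, and spots of 1 probe were averaged. The representative probe of a gene had the most arrays well above background and, among equals, the highest mean level. Calls needed 2-fold in either direction and at least 1 of both arrays well above background. Where 1 array was not, the ratio was bounded by the lowest signal well above background on that array or the probe's own signal if higher, and a dim array above a bright one gave no call. Names came from the scanner files (21 of the 21 probes), and 18 had an accession with the same RefSeq symbol. Positions are those of the design file on mm9. With 1 array per group the number of arrays limits the precision, and no test was run. Calling was checked on simulated arrays whose planted differences were well past 2-fold, so the check does not bear on calls near the limit.

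The 10 genes, the other lists and the rule for naming genes (every listed gene past 2-fold, and the first 2 of a list) were chosen with earlier results of these data known. Some listed genes are not reported here. Alternatives were 1.5-fold and 3-fold limits, no filter or a filter on both arrays, quantile normalization, the percentile over probes above background on all arrays, normexp with an offset of 50, subtraction of the running median ratio, the median of all probes and the series table. Scaling on 7 bright E1A spike-in probes and the background-subtracted signal on all arrays were added after seeing the data. R 4.3.3 with limma 3.58.1 and Python 3.11.15 with numpy 2.4.6 and pandas 2.3.3 were used.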

Additional observations from a re-analysis of the deposited data

How the results depend on the processing

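Of 60 values (the count of called genes and the median ratio in 3 comparisons under each alternative), 49 stayed within 1.5 times the count or within the SD between 2 probes of a gene, and 11 moved. The number of called genes for BP10 against control (2) was 0 at 3-fold and 1 under normexp, the median of all probes and the spike-in scaling. For BP40 against control (1) it was 2 at 1.5-fold, 0 with the median of all probes and 2 with the spike-in scaling. For BP40 against BP10 (0) it was 1 at 1.5-fold and 2 with the spike-in scaling. The spike-in scaling, chosen after seeing the data, also moved the median ratio to -0.75 for BP40 against control and -0.76 for BP40 against BP10. By its construction it lowers every gene of the BP40 array, shifting the median of all genes by -0.77 against control, because the spike-in probes stood at 5.46 on that array and 4.68 on the control, and it turned all 10 genes below 0. Directions of small ratios to control thus depended on the processing for Uhrf1, Mbd3, Tdg, Tet1 and Tet2, for Dnmt1 and Dnmt3l at BP40, and for Dnmt3a at BP10. Dnmt1 at BP10 (0.02 to 0.17) and Dnmt3a at BP40 (-0.95 to -0.18) kept their sign in 8 of 8 settings.

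Tet3 was at least 2-fold lower at BP10 in 8 of 8 settings (-1.37 to -1.16) and at BP40 in 7 of 8 (-2.49 to -0.69, the highest being the median of its probes). At BP10 the median of its probes (-1.30) took A_51_P199339 at its measured -2.54, although that probe was not well above background there. With that probe at its bound of -0.76, the median would be -0.76, short of 2-fold. The other settings rest on the representative probe of Tet3. Dnmt3b was below 0 in 8 of 8 at both doses and past 2-fold in 5 of 8 at BP10 (-1.10 to -0.62) and 1 of 8 at BP40. Dnmt3l at BP10 ranged from -0.96 to -0.81, and its difference between the doses from 0.03 (spike-ins) to 0.94. The lower probe of Tdg stayed at least 2-fold lower in 6 of 6 scalings at both doses, and the higher probe of Tet2 at BP40 stayed at least 2-fold higher in 5 of 6 (0.51 with the spike-ins, and 0.30 for BP40 against BP10). Among all genes, 4565, 4076 and 1295 were called in the 3 comparisons as reported, 1441, 1083 and 535 under normexp, and 3886, 12298 and 8862 with the spike-ins. Of the called genes, 20.2% and 21.7% were higher at BP10 and BP40, 51.9% and 54.5% under quantile normalization, which shifted the median of all genes by 0.18 and 0.10, 32.9% and 46.4% under normexp (0.14 and 0.18), and 32.7% and 1.34% with the spike-ins (0.14 and -0.77). No paired analysis was possible because there were no replicate numbers to pair, with a single array per group. One array per group, the separate scan of the control array and the probe that represents a gene limit every value.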

Other observations

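Genes whose silencing is known to depend on promoter methylation, and pluripotency genes, were read beside the enzymes. Of 16 germline genes on the array, 3 had signal above background with every sample and 5 with no sample. At BP10 1 was called (Ddx4, a germ cell helicase, lower by a ratio of -1.15) and at BP40 3 were, 2 lower and 1 higher, where 12.9% and 11.5% of all gene names were called. Rhox5, a homeobox gene, had levels of -0.66, -1.03 and -2.19 on the control, BP10 and BP40 arrays and was lower at BP40 (-1.53). Ddx4 was above background on the control and BP10 arrays only, and at BP40 it was lower by at least 1.62 on the log2 scale. Sycp3, a synaptonemal complex protein, was above background on the BP40 array only, where it was higher than the control by at least 1.09 on the log2 scale (0.91 in its other probe). Tex19.1 was higher on BP40 than on BP10 by at least 1.02. The first genes of the list, Dazl and Mael, gave no call: Dazl was below background on all arrays and Mael had ratios of -0.40 and -0.42.

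Of 9 pluripotency genes on the array, 3 were called lower at BP10 and 2 at BP40, where 10.3% and 9% of all gene names were called lower. Utf1, a chromatin-associated factor of embryonic stem cells, had levels of 0.23, -1.04 and -1.05. Esrrb, an orphan nuclear receptor, had -1.31, -2.48 and -2.35, and its other probe had ratios of -0.43 and -1.61. Dppa4 had -1.91, -3.00 and -2.76, but the other 2 probes of the gene gave ratios of -0.29 to 0.38 at BP10, so its call rests on 1 of 3 probes. Nanog had ratios of 0.43 and 0.35, with -0.11 and -0.70 in its other probe, and Pou5f1 cleared the background only on the control array, at -4.38. Dnmt3b, Dnmt3l and Zfp57 are also expressed in embryonic stem cells. Their representative probes had ratios of -1.10, -0.96 and -1.32 at BP10. Other probes gave -0.62 and 0.07 for Dnmt3b and 0.41 for Zfp57. These genes are named here for their low ratios. Other listed genes stayed near the control at BP10, such as Tet1 (-0.10), Dnmt3a (-0.09), Uhrf1 (0.15) and Trim28 (0.04). Whether the lower values of Dnmt3b, Dnmt3l and Zfp57 are related was not tested.

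Markers of other cell types were read beside the 12.9% of all gene names called at BP10 and the 11.5% at BP40. Among endothelial markers Emcn was lower at BP40 (-1.08) and Cdh5 was below background on every array, among epithelial markers Krt5 was lower at BP40 (-1.04) and Cldn4 at BP10 (-1.44), although the other Cldn4 probe had ratios of 0.77 and 3.48, and no skeletal muscle marker was called.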
